A study of Mus musculus with 8 samples.

Results

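The cluster of miR-132 and miR-212 is a pair of microRNA (miRNA) genes that gives 4 mature miRNAs, the 3p and 5p arms of miR-132 and of miR-212. The members were chosen by name, as the rows for mmu-miR-132-3p, mmu-miR-132-5p, mmu-miR-212-3p and mmu-miR-212-5p, and make up 4 of the 1881 mouse miRNAs on the array. The study measured kidney total RNA on 8 single-colour Agilent arrays, 1 for each sample. The control and the db/db group had 4 samples each. The db/db mice, labelled C57BLKS/J Iar -+Leprdb/+Leprdb, carry a mutant leptin receptor gene on both chromosomes in every cell and become obese and diabetic. The controls are labelled C57BLKS/J Iar -m+/m+ in the strain field and dbm in the sample titles, and these names leave unclear whether they were heterozygous for db. All samples were from males aged 28 weeks, and no drug or other treatment is named in the labels. Separate animals are not stated for the samples, and a p-value here therefore reflects only how far these samples spread, which may be technical.

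Both genes lie in 1 short transcription unit whose transcription is driven by CREB, the factor that cyclic AMP and calcium signals activate, and the pair is best known from neurons. Each gene's part of the transcript folds into a hairpin that is cut into a 5p and a 3p strand. Usually 1 strand is kept and loaded into Argonaute. The kept strand finds target mRNAs mainly through its seed, bases 2 to 8. Targets shown for miR-132-3p include the GTPase-activating proteins p250GAP and p120RasGAP and, in heart, the transcription factor FoxO3. Outside the nervous system the pair has been studied in endothelium, immune cells, heart muscle and scar-forming cells of the kidney.

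The mature sequences are printed because the seed and the bases outside it decide which members can share targets and which can be told apart by a probe. All 4 members matched the RefSeq table (GRCm38.p6). They are given 5′ to 3′ with the seed in capitals.
mmu-miR-132-3p: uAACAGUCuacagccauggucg
mmu-miR-212-3p: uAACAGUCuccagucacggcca
mmu-miR-132-5p: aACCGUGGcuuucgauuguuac
mmu-miR-212-5p: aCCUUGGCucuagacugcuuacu
miR-132-3p and miR-212-3p had the same seed, AACAGUC, and among the 1679 mature miRNA names in the table no other miRNA had it. The seeds of miR-132-5p, ACCGUGG, and of miR-212-5p, CCUUGGC, each belonged to that miRNA alone. The 3p arms were identical at 17 of 22 bases, including the first 9. Counted from the 5′ end, with the base of miR-132-3p first, the differences were A10C, C14U, U17C, U20C and G22A.

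The hairpins are printed to show where both arms lie, with the mature arms in capitals.
Mir212: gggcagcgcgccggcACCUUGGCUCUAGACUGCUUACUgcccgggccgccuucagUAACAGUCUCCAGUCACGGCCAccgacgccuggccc
Mir132: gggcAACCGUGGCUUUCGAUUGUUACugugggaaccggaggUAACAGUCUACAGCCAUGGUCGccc
In GRCm38.p6 the hairpin of Mir212 lies at chr11:75173388-75173478 and that of Mir132 at chr11:75173682-75173747, both on the + strand with 203 bases between them. The 3p arms lie at chr11:75173443-75173464 for miR-212-3p and chr11:75173723-75173744 for miR-132-3p. No other gene of the RefSeq table overlapped the hairpins or the stretch between them, and the nearest genes were Hic1 on one side and Ovca2 on the other.

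Each member was measured by a pair of probes that differ by 1 base in length, with 15 spots of each probe on every array. The probes of the 3p arms are printed 5′ to 3′ because they cover the 3′ end of the miRNA, where the 3p arms differ. The capital marks the base that the longer probe adds.
miR-132-3p, 16 bases (A_54_P1054): cgaccatggctgtagA
miR-132-3p, 15 bases (A_54_P1055): cgaccatggctgtag
miR-212-3p, 14 bases (A_54_P2617): tggccgtgactggA
miR-212-3p, 13 bases (A_54_P2616): tggccgtgactgg
The miR-132-3p probes pair with bases 7 to 22 and 8 to 22 of their miRNA, and the miR-212-3p probes with bases 9 to 22 and 10 to 22. The longest run of the miR-132-3p probes' complement found in miR-212-3p was 4 bases, and the longest run of the miR-212-3p probes' complement in miR-132-3p was 5 bases. Among the 1678 other mature miRNAs the longest run was 10 bases for both miR-132-3p probes, in miR-1911-5p, which is not on the array. It was 8 bases for the longer and 7 for the shorter miR-212-3p probe. Runs of bases describe the sequences only, since hybridisation was not measured here.

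Of the 1881 miRNAs, 269 were detected on all 8 arrays by the scanner software's flag, with between 289 and 358 detected per array, and no miRNA spot was saturated. The comparison with limma, after scaling each array, took the 316 miRNAs that had the detected flag on every array of the control group, of the db/db group or of both. All 8 tubule miRNAs of a kidney list, among them miR-192-5p, miR-204-5p and miR-10a-5p, were among the miRNAs compared. All arrays shared 1 slide and 1 scan, with all controls in row 1 and all db/db samples in row 2, so the row on the slide and the genotype cannot be told apart. In RNA from whole kidney, fewer cells of a type and less RNA per cell cannot be told apart.

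miR-132-3p, the main product of Mir132, was lower in db/db kidneys. Its signal was dim. As read from the scanner files, before scaling, it was 13.2, 13.01, 19.1 and 18.5 units in control replicates 1 to 4. In db/db replicates 1 to 4 it was 12.3, 9.79, 9.28 and 9.77 units. All 4 db/db arrays lay below all 4 control arrays, and control replicates 3 and 4 were the brightest. After scaling, its log2 signal was 3.91, 3.78, 4.33 and 4.13 in the controls. The db/db values were 3.48, 3.31, 3.14 and 3.24, and the groups again did not overlap. The mean was 4.04 ± 0.24 over the controls and 3.29 ± 0.15 over the db/db arrays (SD, n = 4 each), so that miR-132-3p fell by 0.75 ± 0.13 (SE) on the log2 scale. The change passed the test (Benjamini-Hochberg adjusted p = 0.00233 over 316 miRNAs in limma). On no db/db array were most spots of either of its probes well above background. The size of this fall and its p-values therefore rest on db/db values near background. miR-132-3p entered that comparison through the control group, in which it was higher, since it was detected on 4 control and 3 db/db arrays, and it has no value where detection on all 8 arrays is asked. An exact permutation test, 2-sided, gave p = 0.0286, the smallest that the 70 assignments of 8 arrays allow.

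miR-212-3p, the 3p arm of Mir212, was detected on all 8 arrays. Its signal before scaling was 120, 104, 109 and 120 units in control replicates 1 to 4 and 117, 101, 93.5 and 112 units in db/db replicates 1 to 4, and the groups overlapped on this scale. After scaling its log2 signal was 7.09, 6.78, 6.84 and 6.82 in the controls. The db/db values were 6.73, 6.67, 6.47 and 6.76, and the highest db/db array lay just below the lowest control array. The mean was 6.88 ± 0.14 over the controls and 6.65 ± 0.13 over the db/db arrays (SD, n = 4 each), a log2 difference of -0.23 ± 0.09 (SE) with a 95% interval from -0.43 to -0.02. This difference did not pass the test over all miRNAs (limma, unadjusted p = 0.0336, Benjamini-Hochberg adjusted p = 0.0711). The exact permutation test, 2-sided, gave p = 0.0286, again the smallest possible. The adjusted p for miR-212-3p passed in 5 of 23 alternative settings, with changes from -0.16 to -0.28 in those 5.

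**Figure D1:**
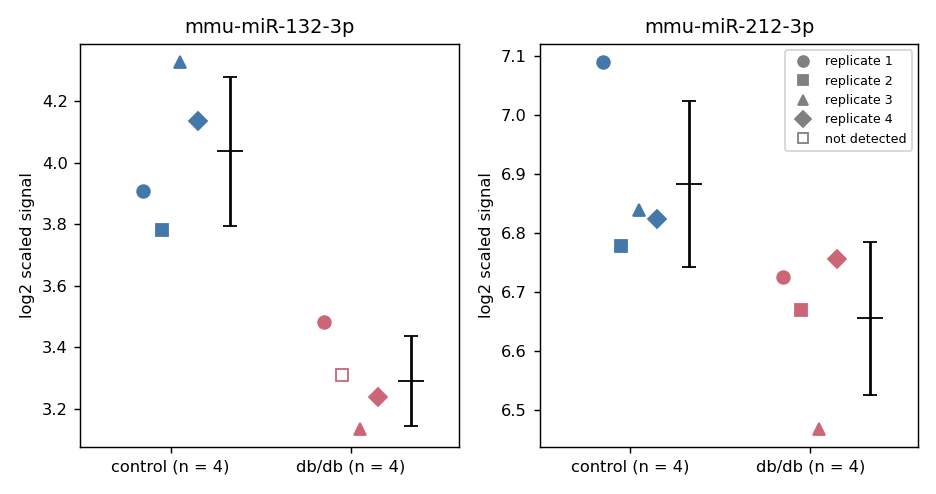
Log2 scaled signal of miR-132-3p (left) and miR-212-3p (right) on each of 4 control and 4 db/db arrays, with separate vertical axes that do not start at 0. Symbols mark the replicate, the open symbol an array where the miRNA was not detected, and bars the mean ± SD. The miR-132-3p values are 3.78 to 4.33 in control and 3.14 to 3.48 in db/db kidneys, and those of miR-212-3p meet at 6.78 and 6.76.

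Of the members compared, 1 of 2 passed the threshold, and it was lower. Over all 316 miRNAs 41.8% passed, 17.4% as lower and 24.4% as higher in db/db kidneys. Groups that did not overlap were found for both members and for 41.5% of all miRNAs compared, or 16.8% with db/db lower. With so many miRNAs past the threshold, these counts alone do not set the cluster apart. The median change over all 316 miRNAs was -0.02.

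The 5p arms miR-132-5p and miR-212-5p were detected on none of the 8 arrays. The signal of miR-132-5p before scaling was between -2.30 and -0.71 units in control and between -2.27 and -0.41 units in db/db kidneys. miR-212-5p lay between -0.73 and 1.68 units in control and between -1.37 and 1.05 units in db/db kidneys. Both were below the mean of the negative control spots, which was 5.06 to 7.01 units on the 4 control arrays and 5.11 to 6.10 units on the db/db arrays. Of 120 spots in each group, 0 were well above background for miR-132-5p in either group. For miR-212-5p, 0 of 120 control spots and 1 of 120 db/db spots were. Neither arm entered the comparison, and no direction can be given for them.

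The signal of miR-132-3p was close to the background of the arrays, which limits how well its fall is measured. The software called it detected on all 4 control arrays and on 3 db/db arrays, all but db/db replicate 2. Of the 30 spots per array, 5, 1, 15 and 16 were well above background in control replicates 1 to 4. In db/db replicates 1 to 4 the counts were 2, 0, 0 and 3. In all this was 30.8% of 120 control spots and 4.17% of 120 db/db spots. For miR-212-3p 120 of 120 control spots and 118 of 120 db/db spots were well above background. The mean of the negative control spots was 5.74 ± 0.87 units over the control arrays and 5.55 ± 0.42 units over the db/db arrays (SD, n = 4 each), a difference within their spread (2-sided exact permutation p = 0.771).

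The longer miR-132-3p probe read 17.5, 16.5, 26.8 and 24.3 units in control replicates 1 to 4 and 17.04, 12.7, 12.9 and 14.8 units in db/db replicates 1 to 4. Before scaling 1 db/db array thus lay within the control range. After scaling its groups did not overlap, and its log2 signal fell by 0.67 ± 0.16 (SE; limma with Benjamini-Hochberg adjustment over 696 probes, adjusted p = 0.0132). With no scaling the change was -0.55 and the call was lost (adjusted p = 0.0572 in limma). Of its 60 spots per group, 35 were well above background in control and 5 in db/db kidneys. A majority of its spots carried that flag on 2 control arrays and on no db/db array. With the mean of all 4 control arrays, 2 of which were not above background, set against the dimmest probes above background on the db/db arrays, its signal was at least 1.13-fold lower there, beside a ratio of 1.59 between the measured means. This bound rests on control values that were themselves in part near background.

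The shorter miR-132-3p probe read 8.94, 9.54, 11.5 and 12.8 units in the controls and 7.64, 6.89, 5.67 and 4.75 units in db/db kidneys, with no overlap. It stood at 1.36 to 2.27 times the negative control mean on the control arrays and at 0.929 to 1.37 times that mean on the db/db arrays. Only 2 of its 60 control spots and 0 of its 60 db/db spots were well above background, so this probe gives only a bound in both groups and neither a change nor a test is given for it. Its readings still enter the mean of both probes that was used for miR-132-3p above.

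Both miR-212-3p probes were well above background on all 8 arrays. The longer one read 196, 171, 178 and 196 units in the controls and 193, 170, 154 and 185 units in db/db kidneys. Its log2 difference of -0.21 ± 0.09 (SE) missed the threshold (Benjamini-Hochberg adjusted p = 0.115 in limma). The shorter one read 43.7, 37.3, 40.3 and 43.4 units in the controls and 40.9, 31.6, 33.1 and 39.0 units in db/db kidneys. Its log2 signal fell by 0.32 ± 0.10 (SE; Benjamini-Hochberg adjusted p = 0.0339 in limma), a call that was lost with no scaling or without any of 5 single arrays, control replicates 1, 3 and 4 and db/db replicates 2 and 3, with adjusted p up to 0.174. Over all 696 probes 39.8% passed, 15.8% as lower. For both miR-212-3p probes the scaled signal of every db/db array was below that of every control array, beside 39.1% of the 696 probes whose groups did not overlap, 16.1% with db/db lower. The miR-132-3p probes had the same order, but their db/db readings were near background, so this order adds no support.

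**Figure D2:**
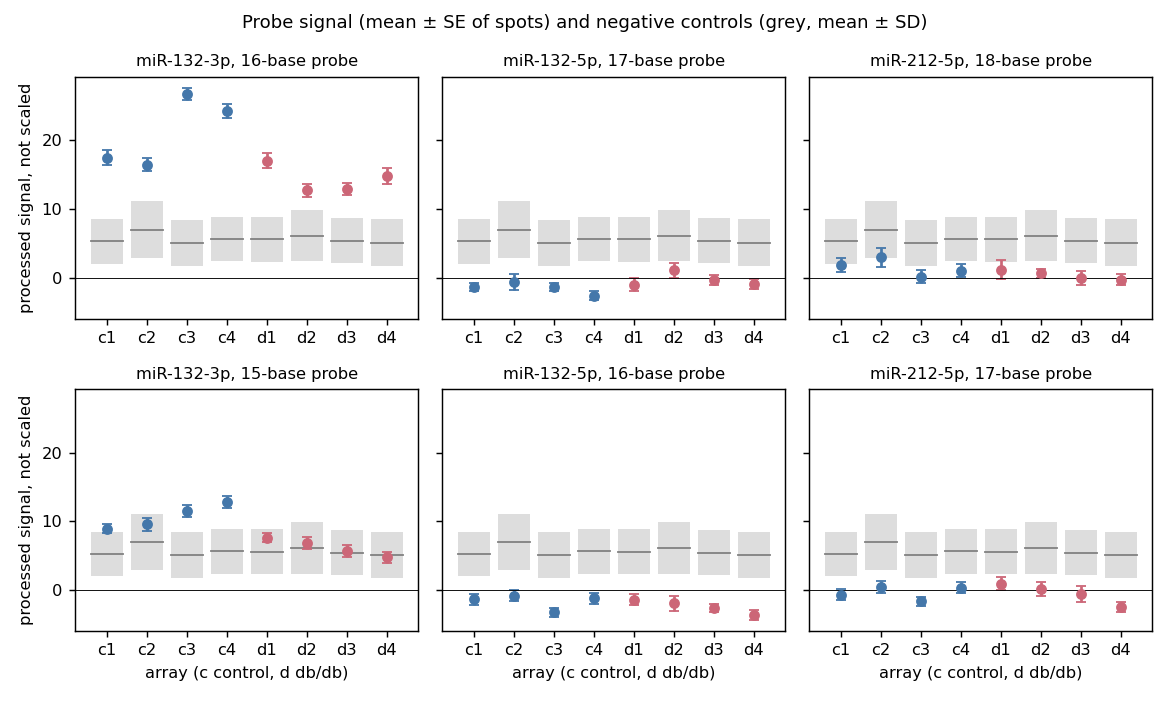
Processed signal, not scaled, of both probes of miR-132-3p, miR-132-5p and miR-212-5p on the 4 control (c1 to c4, blue) and 4 db/db arrays (d1 to d4, red), as mean ± SE of the spots of the probe. The grey band is the mean ± SD of the negative control spots of the array. The longer miR-132-3p probe stands above the band on all arrays, the shorter one lies at 4.75 to 7.64 units, within it, on the db/db arrays, and the 5p probes lie below the mean of the band on all arrays.

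Whether both 3p arms moved by the same amount was asked with the difference of their log2 signals on each array, which compares changes and not levels. miR-132-3p minus miR-212-3p was -3.18, -2.998, -2.51 and -2.69 in control replicates 1 to 4. In db/db replicates 1 to 4 it was -3.24, -3.36, -3.33 and -3.52, below all controls. The mean went from -2.84 ± 0.30 to -3.36 ± 0.11 (SD, n = 4 each), a change of -0.52 (exact permutation test, 2-sided, p = 0.0286, the smallest possible). The larger fall of miR-132-3p rested on db/db values near background and depended on how the background was treated. The normexp background model, run with an offset of 50 units, gave a change of -0.03 (exact permutation p = 0.543). miR-132-3p then fell by 0.19 and miR-212-3p by 0.16 on the log2 scale, and the adjusted p passed for both (limma with Benjamini-Hochberg adjustment, 0.00491 and 0.0467). Such an offset shrinks the log2 change of a dim miRNA more than that of a brighter one. This setting therefore cannot decide whether both arms fell alike.

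The other choices of processing left the sign of the change unchanged for both arms. miR-132-3p was lower in each of 22 alternatives that gave it a value, by 0.19 to 2.06 on the log2 scale, and passed in 21 of them. These alternatives reuse the same arrays, with db/db values of miR-132-3p near background. Most also keep the filter that miR-132-3p passed through the control group. The count of passes is therefore no independent support for its fall. In the authors' deposited table of relative values it was 1.19, 1.12, 1.80 and 2.23 in the controls and 0.896, 0.0291, 0.787 and 0.860 in db/db kidneys. The value 0.0291 belongs to db/db replicate 2, on which the miRNA was not detected and which held a fill, and with it the change of -2.06 missed the threshold (Benjamini-Hochberg adjusted p = 0.187 in limma). miR-212-3p was lower in each of 23 alternatives, by 0.05 under spike-in scaling to 0.28 with the brightest probe. Its change was -0.05 ± 0.07 (SE) under spike-in scaling, smaller than its error, and -0.10 ± 0.09 (SE) with no scaling. The size of the miR-212-3p difference thus depended on the scaling.

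**Figure D3:**
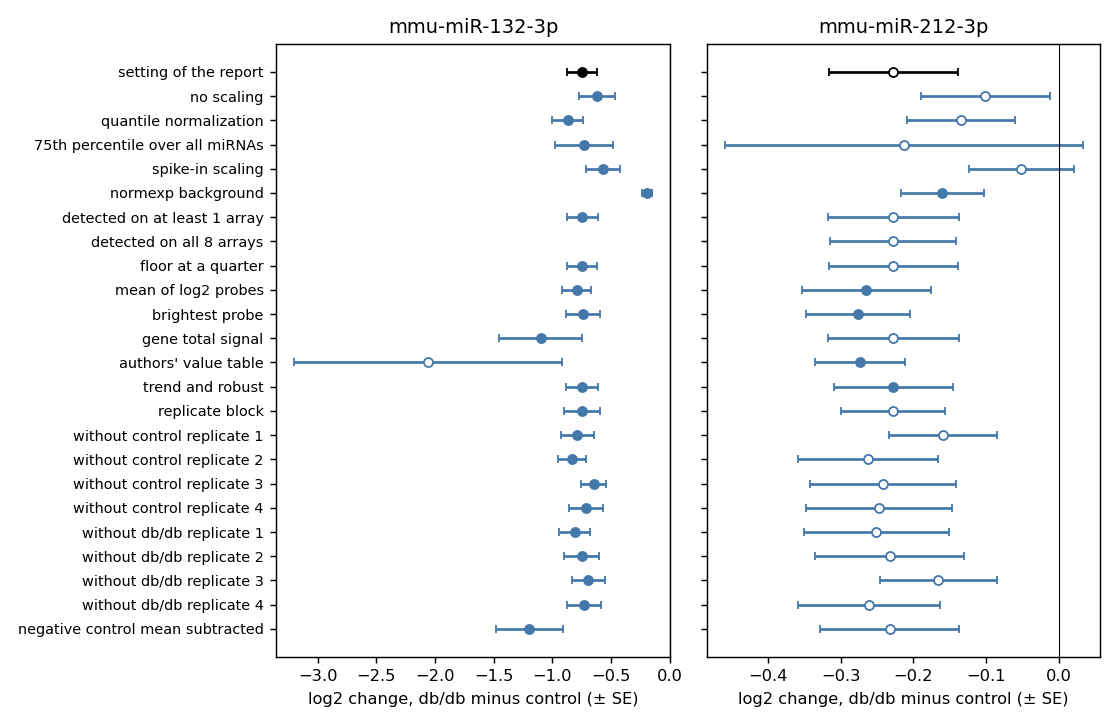
Log2 change, db/db minus control, of miR-132-3p (left) and miR-212-3p (right) with its SE in the setting of the report (black) and in each alternative (blue), with separate horizontal axes. Filled points have an adjusted p under 0.05 in limma. miR-132-3p lies between -2.06 and -0.19, and miR-212-3p between -0.28 and -0.05, with filled points in 5 alternatives.

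Among the miRNAs that the RefSeq table places within 1 Mb of the cluster, miR-22-3p and miR-22-5p were detected on all 8 arrays, and miR-3971, miR-6926-3p and miR-6926-5p on none. The gene of miR-22, a broadly expressed miRNA, lies 290 kb beyond Mir132. The log2 difference was -0.14 ± 0.07 (SE) for miR-22-3p and -0.17 ± 0.06 (SE) for miR-22-5p. Neither passed the test (Benjamini-Hochberg adjusted p = 0.125 and 0.0515 in limma), and both turned to above 0 under spike-in scaling. miR-22-5p passed as lower in 10 of 23 alternatives and miR-22-3p in 2.

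The miRNAs whose profile over the 8 arrays lay nearest to that of miR-132-3p were found by the root mean square difference of log2 values, after subtracting each miRNA's own mean. They were miR-709, at 0.125, miR-3095-3p and miR-467f, both at 0.134, miR-669p-3p at 0.152 and miR-5107-5p at 0.167, against a median of 0.430 over the 314 other miRNAs compared. All 5 were lower in db/db kidneys. The log2 change was -0.79 ± 0.06 (SE) for miR-709 and -0.92 ± 0.18 (SE) for miR-5107-5p, and between -0.54 and -0.59 for the others. The call was lost in 3 of 22 alternatives for miR-3095-3p and in 1 of 22 for miR-5107-5p. Both of these were detected on 4 control and 3 db/db arrays and entered the comparison through the control group. The call was lost in 1 of 23 alternatives each for miR-467f and miR-669p-3p, and in none of 23 for miR-709. Likeness here includes the difference between the groups and is a description of 8 arrays. Nearest to miR-212-3p were miR-6898-5p at 0.0666, miR-6368 at 0.0691 and miR-6965-5p at 0.0717, against a median of 0.199. Of these, miR-6965-5p fell by 0.28 ± 0.07 (SE; Benjamini-Hochberg adjusted p = 0.0132 in limma), a call lost in 3 alternatives, with changes of -0.16 with no scaling, -0.11 under spike-in scaling and -0.27 with the 75th percentile over all miRNAs. miR-6898-5p and miR-6368, with differences of -0.18 and -0.21, did not pass.

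Neurons are where the cluster is best known, and a list of 11 neuronal and activity-linked miRNAs was set beside it. The neuron-specific miR-124-3p and 5 others, miR-134-5p, miR-138-5p, miR-184-3p, miR-485-5p and miR-381-3p, were detected on no array. None of the 4 members compared passed, with log2 differences of 0.15 for miR-9-5p, 0.08 for miR-128-3p, 0.02 for miR-7a-5p and -0.05 for miR-219a-5p, each of which changed sign in at least 1 alternative. The median was 0.05.

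Most miRNAs of a list for leukocytes and NF-kB induction were lower beside miR-132-3p. This and the other lists were chosen with earlier results of these data known. Their counts beside the shares over all miRNAs are therefore a description only. Over all 316 miRNAs, 17.4% passed as lower and 24.4% as higher. Of 9 listed, 8 were compared, 6 fell, 0 rose and 2 did not pass, with a median of -0.99. Those 2 were miR-155-5p, which NF-kB induces, with a difference of -0.22, and miR-146b-5p with -0.02. miR-147-3p was detected on no array. miR-146a-5p, another NF-kB target, fell by 1.49 ± 0.13 (SE), and the blood cell miRNA miR-142a-3p by 1.16 ± 0.16 (SE). Its other arm miR-142a-5p fell by 1.43 ± 0.19 (SE), and miR-150-5p of mature lymphocytes by 1.39 ± 0.16 (SE; limma with Benjamini-Hochberg adjustment, highest adjusted p of the 4 0.000719). miR-150-5p was detected on 4 control and 1 db/db arrays. It thus entered the comparison through the control group, in which it was higher. The size of its fall and its p-value rest on db/db arrays where it was mostly not detected, and the count of 6 includes it. The change of miR-150-5p was -0.25 under normexp, whose offset of 50 units shrinks dim signals, and -4.61 in the authors' deposited table. The summed scaled signal of the list was 670 to 854 on the control arrays and 307 to 420 on the db/db arrays. Its part in the fall of miR-132-3p was not tested.

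Of the lists for other cell types, none of 4 endothelial miRNAs passed, with a median of -0.03. Their summed scaled signal was 4551 to 4777 in control and 4271 to 4458 in db/db kidneys. The endothelial miR-126a-3p and miR-126a-5p had log2 differences of -0.11 and -0.15, with adjusted p of 0.0566 and 0.0567 in limma, and passed as lower in 5 and 7 alternatives, and both turned to above 0 under spike-in scaling, miR-126a-3p also with no scaling. miR-221-3p and miR-222-3p, at 0.08 and 0.04, did not pass, though miR-221-3p passed as higher with no scaling (0.21), quantile normalization (0.18) and spike-in scaling (0.26), and miR-222-3p under spike-in scaling (0.22). Neither smooth muscle miRNA compared passed, with -0.04 for miR-143-3p and -0.06 for miR-145a-5p, both above 0 with no scaling and under spike-in scaling. The summed signal of that list was 455 to 523 in control and 456 to 514 in db/db kidneys. For the red cell miRNAs miR-451a and miR-144-3p the differences, 0.27 ± 0.61 and 0.53 ± 0.66 (SE), were smaller than their errors.

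Of 8 tubule miRNAs 5 rose, 0 fell and 3 did not pass, with a median of 0.19, beside 24.4% higher over all 316 miRNAs. miR-204-5p, abundant in tubular epithelium, rose by 1.05 ± 0.04 (SE), miR-200c-3p by 0.42 ± 0.08 (SE) and miR-10b-5p by 0.27 ± 0.05 (SE), while miR-10a-5p rose by 0.21 ± 0.06 (SE), a call lost in 6 alternatives. The summed scaled signal of the list was 15953 to 17004 in control and 17966 to 18686 in db/db kidneys, and its part in the lower signal of miR-132-3p was not tested. Of 9 fibrosis-associated miRNAs compared, 1 rose and 3 fell, with a median of 0.07. This share is near the 41.8% that passed over all 316 miRNAs. miR-34a-5p, induced by p53, rose by 0.64 ± 0.09 (SE). miR-214-3p, miR-199a-3p and miR-199a-5p, which are made in mesenchymal cells, fell by 0.44, 0.42 and 0.32. The call of miR-199a-5p was lost with no scaling (-0.20) and under spike-in scaling (-0.15). Scaled to the 75th percentile of all 1881 miRNAs, the calls of miR-200c-3p, miR-10a-5p, miR-10b-5p, miR-34a-5p, miR-214-3p, miR-199a-3p and miR-199a-5p were lost. The SE was 0.25 for each of them in that setting. The lists share miR-192-5p, which stands among the tubule and the fibrosis-associated miRNAs.

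**Figure D4:**
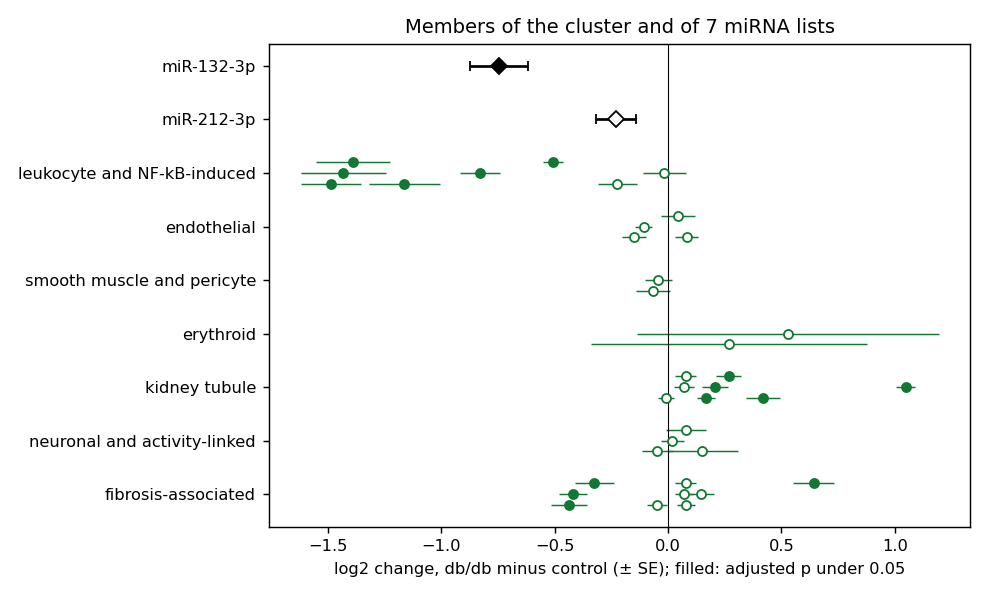
Log2 change, db/db minus control, with its SE for miR-132-3p and miR-212-3p (black diamonds) and for the compared members of 7 lists (green circles). The lists were chosen with earlier results of these data known. Filled symbols have an adjusted p under 0.05 in limma over 316 miRNAs. The leukocyte and NF-kB-induced list has 6 filled points, all below 0, the tubule list 5, all above 0, and the neuronal, endothelial, smooth muscle and erythroid lists none. Over all 316 miRNAs, 17.4% passed as lower and 24.4% as higher.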

How the data were processed

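The spot intensity values were deposited by the authors as scanner files from Agilent Feature Extraction 12.0.3.1, per the submitters' processing notes and the file headers, with spatial detrending on and background correction off. The authors also deposited relative values, a linear ratio per miRNA and array, used only as an alternative, and no source used here gives its scaling. Here the processed signal was averaged over a probe's non-outlier spots, and probes of the same miRNA were then averaged. Each array was scaled to its 75th percentile, taken over the 269 miRNAs with the detected flag throughout, signals under a floor of 2.80 (1.48 on the log2 scale) were set to it, and log2 was taken. The 316 miRNAs detected on every array of either group were compared with limma 3.58.1 in R 4.3.3 (with data.table in version 1.17.8), with Benjamini-Hochberg adjustment and calls at an adjusted p under 0.05, 2-sided. The same fit was made for their 696 probes. Other values were computed in Python 3.11.15 with pandas 2.3.3 and drawn with matplotlib 3.10.9. The fit was tested on simulated data.

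The members, the lists and the rule for named miRNAs were chosen with earlier results of these data known. The rule took the 4 members, miRNAs with a member's seed or within 1 Mb, the 5 profiles nearest to miR-132-3p and 3 nearest to miR-212-3p, and at most 4 miRNAs from each list, first those past the threshold by size. Alternatives changed the scaling, background model, detection filter, floor, probe summary, signal, limma settings and replicate block, or left out 1 array. The precision is limited by the number of arrays.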

Additional observations from a re-analysis of the deposited data

Results flagged for a closer look

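Among the groups of 4 arrays of the named miRNAs, 84 were checked for an array far from the other 3, and 1 was found; chance alone marks about 1 in 20 such groups. miR-6368, one of the profiles nearest to miR-212-3p, had a log2 signal of 8.13 in control replicate 1, against 7.79 to 7.82 in the other 3 controls. The same array also gave the highest control value of miR-212-3p, 7.09, which did not meet this criterion.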

How the results depend on the processing

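The miRNAs past the threshold, 77 higher and 55 lower, numbered 34 in all when the 75th percentile was taken over all 1881 miRNAs, where the list members past the threshold numbered 6, and list members numbered 23 under spike-in scaling. With 289 to 358 of the 1881 miRNAs detected per array, the 75th percentile over all miRNAs fell among undetected ones. The SE in that setting was 0.25 for every named miRNA, whatever its own spread. In the other settings 108 to 166 miRNAs passed. The share of higher among them, 58.3%, was 78.1% with no scaling, 83.1% under spike-in scaling, 46.9% with quantile normalization and 40.9% with the brightest probe, and the median change of all miRNAs was 0.10 and 0.15 in the first 2 of these. The change of miR-132-3p was -2.06 in the authors' value table, not past the threshold, and could not be had where detection on all 8 arrays was asked. miR-212-3p passed with -0.16 under normexp, -0.26 with the mean of log2 probes, -0.28 with the brightest probe, -0.27 in the authors' value table and -0.23 with trend and robust fitting. The difference between the 3p arms was -0.032 under normexp, run with an offset of 50 units. With no scaling the longer miR-132-3p probe gave -0.55 and the shorter miR-212-3p probe -0.19, neither past the threshold. The cause of these differences was not tested. Leaving out 1 array gave 113 to 139 miRNAs past the threshold, 14 to 18 list members, -0.83 to -0.65 for miR-132-3p, -0.26 to -0.16 for miR-212-3p, -0.63 to -0.41 for the difference of the arms (exact permutation p of 0.0571 without any 1 db/db array, with the direction kept) and -0.37 to -0.25 for the shorter miR-212-3p probe. With the replicate number as a block 144 miRNAs passed, and the adjusted p of limma was 0.0211 for miR-132-3p and 0.0584 for miR-212-3p. Same-numbered arrays deviated with correlations from -0.431 to 0.406. With so few arrays these values cannot show whether the numbers pair the samples. Subtracting the negative control mean, chosen after seeing the data, gave -1.20 for miR-132-3p and -0.23 for miR-212-3p. Named miRNAs that had not passed changed sign as follows. With no scaling miR-126a-3p was 0.019, miR-143-3p 0.083, miR-145a-5p 0.062 and miR-219a-5p 0.080. Under spike-in scaling they were 0.069, 0.13, 0.11 and 0.13, with miR-126a-5p at 0.027, miR-22-3p at 0.035 and miR-22-5p at 0.0035. Under normexp miR-128-3p was -0.051, miR-222-3p -0.0054, miR-7a-5p -0.065 and miR-9-5p -0.037. With the brightest probe miR-222-3p was -0.026 and miR-7a-5p -0.044, with the gene total signal miR-7a-5p was -0.17, and in the authors' table miR-222-3p was -0.0019 and miR-7a-5p -0.22. With 1 array left out miR-451a ranged from -0.12 to 0.70, miR-7a-5p from -0.0062 to 0.047 and miR-219a-5p from -0.075 to 0.0020.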
